A study of Populus tremula x Populus alba with 2 samples.

Results

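Laccases are copper-containing oxidases secreted into the cell wall. They reduce oxygen to water and oxidise phenols in exchange, and in wood the phenols are the monolignols, the building blocks of lignin, which class III peroxidases oxidise too. In Arabidopsis, LAC4 and LAC17 are known for lignifying the stem, and in poplar the laccases of wood-forming tissue are a large family, many of whose transcripts are targets of the microRNA miR397. The enzyme expressed by the transgenic trees, MOMT4, acts just before this step: it methylates the phenol that a laccase would oxidise. The transcript levels of 8 poplar laccases related to Arabidopsis LAC4, LAC17 and their kin were followed here. They were selected as a fixed list of identifiers, not by their values, though earlier results of these data were known when it was chosen. All 8 were found among the 41335 poplar genes of the table. Which of them is closest to which Arabidopsis laccase is not annotated in the files, and roles are therefore given for the family and not copy by copy.

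The series holds 2 libraries from hybrid aspen (Populus tremula x Populus alba, a single clone), 1 labelled WT and 1 labelled MOMT4 transgenic line. Both came from greenhouse-grown plants about 2 months old, from debarked stem of internodes 1 to 15, and each pooled about 100 mg of tissue from 2 to 3 plants. The transgenic plants were all of line MOMT4-0, in which the engineered MOMT4 gene is driven by the bean PAL2 promoter, a promoter known from tobacco to be active at the onset of xylem differentiation. With 1 pool per line there are no replicates, so no test of the lines is possible, and the differences below compare 2 libraries. Values are RPKM, which the paper describes as normalised for exon length and for the number of mapped reads. Copies were therefore compared per length, within the limits of mapping given below.

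The extra, non-poplar row of the table, taken as the transgene, stood at 1221.8 RPKM under the MOMT4 heading and 4.79 RPKM under the WT heading. The headings, which match the sample titles, were followed. The codes q1 and q2 are swapped in the sample descriptions, and a table read by those codes would have every ratio below inverted. The spacing of low values showed that RPKM rest on totals of about 9466000 reads for MOMT4 and 8756000 for WT. Of the poplar genes, 22944 had a mean of at least 1 RPKM, the filter used below, and their median log2 ratio of MOMT4 over WT was -0.0057. As a check of the tissue, 5 identifiers set down from general knowledge as the secondary wall cellulose synthases of xylem had 34.3 to 304.8 RPKM in MOMT4 and 35.9 to 317.6 RPKM in WT. Markers of phloem and green tissue could not be matched to identifiers and were not analysed here.

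A single copy carried most of the laccase message. Potri.010G193100 (chromosome 10, 18783952 to 18787847) had 215.5 RPKM in MOMT4 and 170.7 RPKM in WT, ranking 409 and 585 among the 41336 rows. It held 62.6% of the summed RPKM of the 8 laccases in MOMT4 and 64.7% in WT. Its level lay within the range of the cellulose synthases given above, and the other 7 copies shared the remainder. Potri.016G112000 (chromosome 16, 11477122 to 11480306) came next, with 44.2 RPKM in MOMT4 and 36.1 RPKM in WT. In each library the level of Potri.010G193100 was more than 4 times that of the copy after it: 4.88-fold in MOMT4 (95% interval 4.49 to 5.31) and 4.73-fold in WT (4.30 to 5.22). These intervals, and those below, are exact Clopper-Pearson intervals on read numbers and cover counting error only. They carry no error between plants or pools.

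The middle of the order was held by copies on chromosomes 9, 1 and 6. Potri.009G042500 (chromosome 9, 4926070 to 4929986) had 35.6 RPKM in MOMT4 and 18.6 RPKM in WT. Potri.001G248700 (chromosome 1, 25830931 to 25835436) had 22.1 RPKM in MOMT4 and 14.1 RPKM in WT. Potri.006G096900 (chromosome 6, 7405751 to 7409066) had 13.8 RPKM in MOMT4 and 12.6 RPKM in WT. In MOMT4 each of these copies exceeded the next beyond counting error, whereas in WT Potri.001G248700 and Potri.006G096900 did not differ from each other by that measure. Potri.001G248700 exceeded Potri.006G096900 by 1.60-fold in MOMT4 (1.35 to 1.92) but by 1.12-fold in WT (0.91 to 1.38), an interval that holds 1.

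The lowest levels belonged to copies on chromosomes 6, 16 and 8. Potri.006G097100 (chromosome 6, 7420542 to 7423546) had 6.38 RPKM in MOMT4 and 6.59 RPKM in WT. Potri.016G112100 (chromosome 16, 11489119 to 11492080) had 5.42 RPKM in MOMT4 and 4.91 RPKM in WT. These 2 copies did not differ from each other beyond counting error in either library, the ratio being 1.18 in MOMT4 (0.89 to 1.57) and 1.34 in WT (0.99 to 1.82). Potri.008G064000 (chromosome 8, 3873859 to 3877490) was barely detected, with 1.23 RPKM in MOMT4 and 0.42 RPKM in WT. Its values correspond to 22 reads and 7 reads. It was the single copy with a mean under 1 RPKM, so 7 of the 8 laccases passed the filter. All 8 copies kept the same order of level in both libraries.

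**Figure D1:**
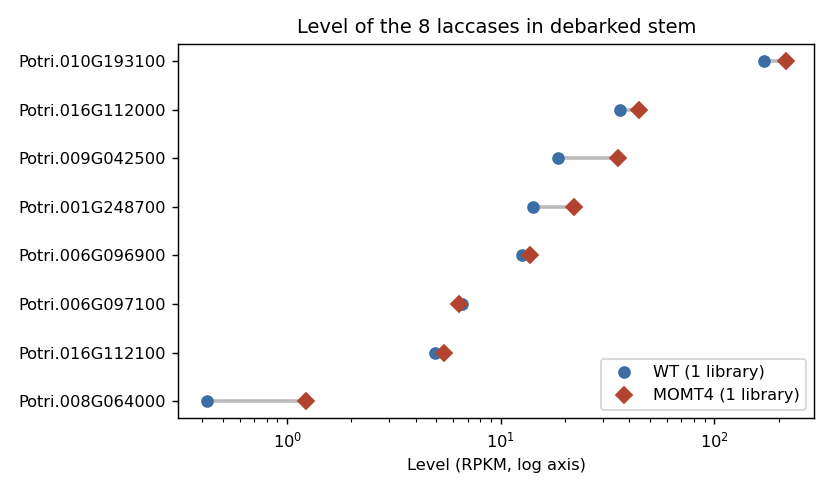
Level of each laccase (RPKM, log axis) in the WT library (circles) and the MOMT4 library (diamonds), with the copies ordered by their WT level. Potri.010G193100 leads with 170.7 and 215.5 RPKM, and the widest gaps between the libraries are at Potri.009G042500, Potri.001G248700 and the barely detected Potri.008G064000.

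The summed level of the 8 laccases was 344.1 RPKM in MOMT4 and 264.0 RPKM in WT, a ratio of 1.30. In a bulk sample, more cells of the type that transcribes a gene and more transcript per cell cannot be told apart. Potri.010G193100 made up 55.9% of the difference of 80.1 RPKM, which is somewhat less than its share of the sum. Potri.009G042500 made up 21.2% of it, although it held only 7.04% of the sum in WT. Its share of the sum was 10.3% in MOMT4. Potri.016G112000 and Potri.001G248700 gave 10.1% and 9.95% of the difference. For the remaining 4 copies MOMT4 minus WT lay between -0.20 RPKM, at Potri.006G097100, and 1.18 RPKM, at Potri.006G096900. The cellulose synthase list showed no such shift, and its sum was 879.0 RPKM in MOMT4 and 881.6 RPKM in WT, a ratio of 0.997, and its 5 log2 ratios lay between -0.06 and 0.05.

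**Figure D2:**
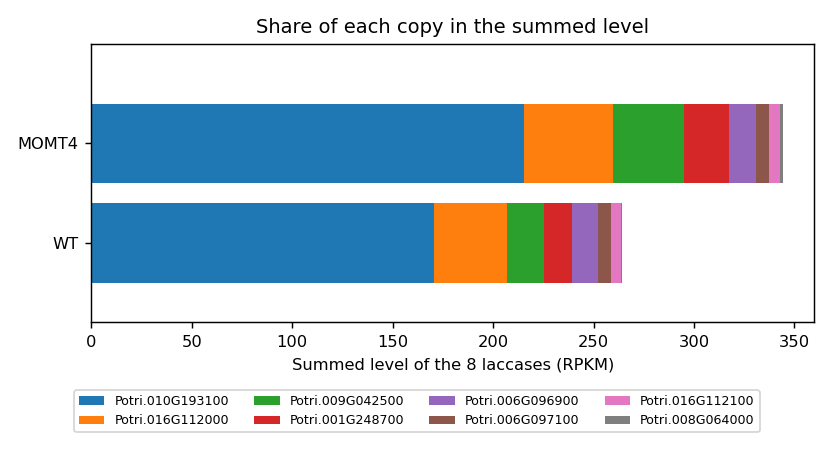
Summed level of the 8 laccases (RPKM) in the WT and the MOMT4 library, each bar divided by copy. The sums are 264.0 and 344.1 RPKM, and Potri.010G193100 takes up 64.7% and 62.6% of them.

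The comparison of the lines asked whether the laccases, which work directly downstream of the monolignols that MOMT4 modifies, differed in transcript level between the transgenic and the control stem. Of the 8 copies, 7 were higher in MOMT4 and 1 was lower. The log2 ratio of each copy was taken after adding 1 RPKM to both values, which understates the ratio of low genes. Among the 7 copies past the filter, 6 were higher in MOMT4 by any amount, where 49.1% of all poplar genes past the filter were. None of the 7 was at least 2-fold apart (0 of 7, against 1.77% of all genes), and 2 were at least 1.5-fold higher, against 4.05% of all genes and 2.31% of the genes whose mean reached 5 RPKM, as that of all 7 did. At least 1.5-fold lower were 0 of 7, against 3.01% of all genes. The median log2 ratio of the 7 was 0.28, beside -0.0057 over all genes. These limits are rules of size and not tests.

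Potri.009G042500 showed the largest ratio past the filter. Its 35.6 RPKM in MOMT4 was 1.91 times its 18.6 RPKM in WT, with a counting interval of 1.65 to 2.23, and its log2 ratio was 0.90. Its rank among all rows was 4127 in MOMT4 and 7786 in WT. Among the 500 poplar genes nearest to it in mean RPKM, 498 had a smaller log2 ratio, and the central 95% of them lay between -0.45 and 0.42. Potri.001G248700, the copy with the next largest ratio past the filter, stood at 1.56 times its WT level (1.31 to 1.88), with a log2 ratio of 0.61. Of its 500 genes of like mean, 493 had a smaller ratio, and their central 95% lay between -0.54 and 0.44. With 500 genes of like mean, these 2 copies were the members outside the central 95%.

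The abundant copies differed by less. Potri.010G193100 stood at 1.26 times its WT level (1.20 to 1.33), a log2 ratio of 0.33. Its counting interval was the narrowest of the 8, yet 19 of the 500 genes of like mean had a ratio at least as large. Potri.016G112000 stood at 1.22 times its WT level (1.09 to 1.38), a log2 ratio of 0.28, and 55 of its 500 genes of like mean had one at least as large. For both copies the difference thus exceeded counting error, and it lay inside the central 95% of the 500 genes of like level, which was -0.39 to 0.43 for Potri.010G193100 and -0.43 to 0.48 for Potri.016G112000.

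**Figure D3:**
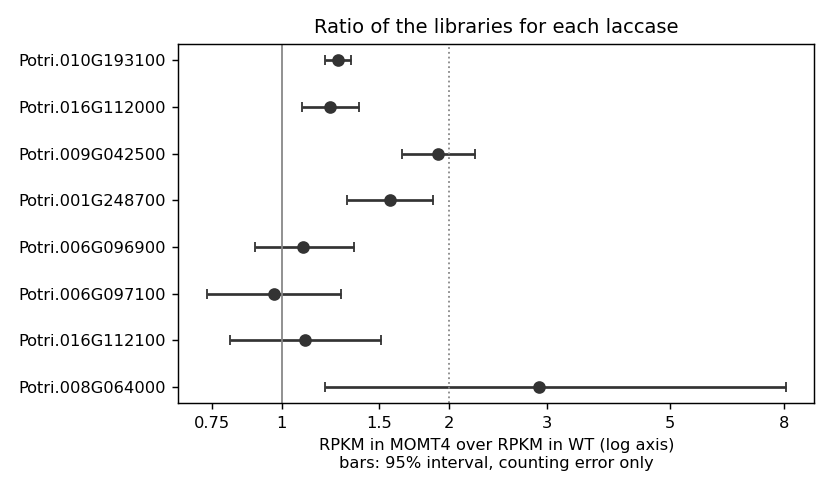
RPKM in MOMT4 over RPKM in WT for each laccase (log axis), with 95% intervals that cover counting error only; the solid line marks equal levels and the dotted line a 2-fold difference. The intervals of 5 copies lie above 1 and those of Potri.006G096900, Potri.006G097100 and Potri.016G112100 hold 1.

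The other copies gave little or no sign of a difference at this depth. Potri.006G096900 stood at 1.09 times its WT level (0.89 to 1.35), Potri.016G112100 at 1.10 times (0.81 to 1.51) and Potri.006G097100 at 0.97 times (0.73 to 1.28). These 3 intervals hold 1, so a difference was not detectable at this depth, and they leave room for ratios of up to 1.51 and down to 0.73. Potri.006G097100 was the member that was lower in MOMT4, and 241 of the 500 genes of like mean had a smaller ratio. Potri.008G064000 had the largest plain ratio, 2.91, but on 22 and 7 reads the counting interval ran from 1.20 to 8.06. After adding 1 RPKM its log2 ratio was 0.65, and with 0.1 RPKM added it was 1.35. Of its 500 genes of like mean, 44 had a ratio at least as large, and their central 95% reached from -1.10 to 1.25.

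**Figure D4:**
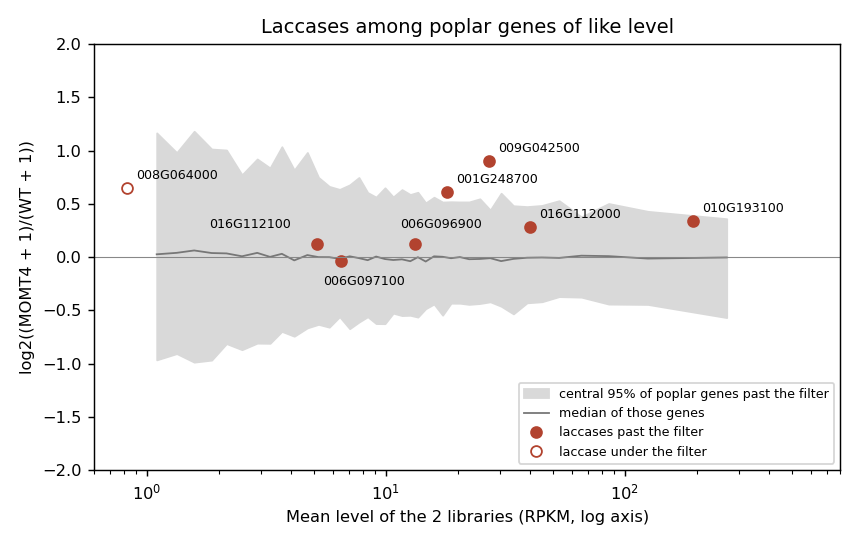
Log2 ratio of MOMT4 over WT, with 1 RPKM added, against the mean level of the 2 libraries (RPKM, log axis); the band holds the central 95% of poplar genes past the filter in 40 classes of equal size and the line is their median. Potri.009G042500 at 0.90 and Potri.001G248700 at 0.61 stand above the band, and the other laccases past the filter lie inside it.

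Laccase genes of the list stood side by side in 2 places. On chromosome 6, Potri.006G096900 and Potri.006G097100 are separated by 11.5 kb that holds 1 other row, Potri.006G097000, and on chromosome 16 Potri.016G112000 and Potri.016G112100 are separated by 8.81 kb with no row between them. In both places the copy with the lower position was the higher expressed one. Potri.016G112000 exceeded its neighbour 8.15-fold in MOMT4 (6.55 to 10.2) and 7.34-fold in WT (5.78 to 9.44). Potri.006G096900 exceeded Potri.006G097100 by 2.16-fold in MOMT4 (1.70 to 2.74) and 1.91-fold in WT (1.49 to 2.46). The imbalance was thus far larger on chromosome 16 than on chromosome 6, and within each pair the intervals of both libraries overlapped. The row between the chromosome 6 copies has no name in the table, was singled out after its values were seen, and had 4.66 RPKM in MOMT4 and 4.41 RPKM in WT.

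**Figure D5:**
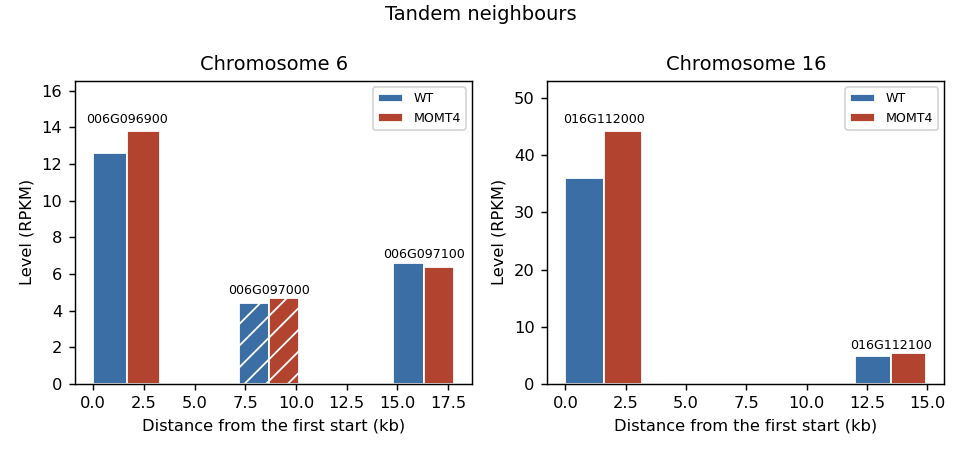
Levels (RPKM) of neighbouring genes on chromosome 6 and chromosome 16 in WT and MOMT4, drawn at their distance from the first start (kb) with each pair of bars as wide as the gene's span; the hatched row, Potri.006G097000, is not on the list. Potri.016G112000 exceeds its neighbour 7.34-fold in WT and 8.15-fold in MOMT4, and Potri.006G096900 exceeds Potri.006G097100 by 1.91-fold and 2.16-fold.

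Copies on chromosomes 1 and 9, 8 and 10, and 6 and 16 were also set against each other, because these chromosomes share long blocks left by an ancient duplication of the poplar genome. That these particular genes are duplicates was not checked on sequence. The copies of chromosomes 1 and 9 were near each other in level and were those with the largest ratios past the filter. Potri.009G042500 exceeded Potri.001G248700 by 1.32-fold in WT (1.09 to 1.59) and by 1.61-fold in MOMT4 (1.40 to 1.85). Chromosomes 8 and 10 held the extremes, the level of Potri.010G193100 being 405 times that of Potri.008G064000 in WT (196 to 1008) and 176 times in MOMT4 (116 to 281). Between the arrays, Potri.016G112000 exceeded Potri.006G096900 by 2.86-fold in WT (2.41 to 3.42) and by 3.21-fold in MOMT4 (2.74 to 3.76). In none of these 3 pairs did the intervals of the libraries part.

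A gap whose intervals did part between the libraries was that between Potri.016G112000 and Potri.009G042500, which follow each other in the order of levels. Potri.016G112000 was 1.94-fold higher in WT (1.67 to 2.26) and 1.24-fold higher in MOMT4 (1.11 to 1.39), and these intervals do not overlap. The pair was picked out after its values were seen. Overlap of separate intervals is a coarse rule that does not compare the 2 ratios directly, so pairs whose intervals overlap may differ too.

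Several features of the counting bear on levels compared between copies. Reads of a P. tremula x P. alba hybrid were aligned to the genome of P. trichocarpa with 1 mismatch allowed, and how reads that fit several copies were assigned is not given in the sources used here. Levels of neighbouring or duplicated copies are uncertain to that extent, and the part of mapping in the results was not tested. None of the 8 genes overlaps another row of the table. They span 2962 to 4506 bases.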

How the data were processed

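Strand-specific libraries of debarked stem were sequenced, 1 per line. The authors mapped reads with TopHat on the PlantGDB release of the P. trichocarpa genome and deposited RPKM values per gene. Neither versions nor the build is stated in the sources used here. The columns of fold changes, p-values and q-values were not used. Starts are those of the table plus 1.

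Log2 ratios used a pseudocount of 1 RPKM, a filter of mean 1 RPKM and, for likeness, the 500 genes nearest in mean RPKM; 2 rows marked as failed were left out. No test was made, as each group has 1 library. The members and lists were chosen with earlier results of these data known. Named were the 8 laccases, the transgene row and, had they been annotated, other laccases.

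The value of 1 read was taken from the commonest ratio of WT to MOMT4 other than 1, 1.08, shared by 997 rows. The totals came from a line through 772 rows on which reads per RPKM followed the span less 215 bases. Whole reads of 3 laccases were read off from RPKM ratios (tolerance 8e-06, counted length 1600 to 2300 bases, under 0.1 pairs foreseen by chance), and the fewest such reads were used. For the other 5, reads were reckoned for a counted length of 1600 bases, which widens the intervals if the true counted length is longer. These settings were set with the data in view. On simulated libraries of 41333 genes the true pair was among the pairs found for 300 of 300 genes checked. Reads were drawn as whole numbers over a fixed length, the model that the recovery assumes, so this outcome was largely built in. Reads that fit several copies were not simulated. Only genes with a true counted length of 1600 to 2300 bases, and with neither very few nor very many reads, were checked. The simulation therefore cannot show that the laccases have such lengths, nor that the pair with the fewest reads is the true one. The software was Python 3.11.15 with SciPy 1.17.1, NumPy 2.4.6, matplotlib 3.10.9 and pandas 2.3.3.

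Lists of other laccases, peroxidases, dirigent proteins, monolignol enzymes, and green tissue and phloem markers needed annotation and were not analysed here. Alternatives were a pseudocount of 0.1 RPKM, other filters, scalings, limits and numbers of like genes.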

Additional observations from a re-analysis of the deposited data

How the results depend on the processing

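No paired analysis was possible because the lines were sequenced as 1 pool each, and no library could be left out. The log2 ratio of each of the 8 laccases kept its sign in all 24 values computed with a pseudocount of 0.1 RPKM, centring on the median of all genes or scaling to equal sums of RPKM, and stayed within its counting interval. The signs were not put to a test by this. A pseudocount cannot change a sign, and centring and scaling shifted the ratios little. The ratio smallest in size, that of Potri.006G097100, went from -0.039 to -0.034 with centring and to -0.022 with scaling. The median of the laccases past the filter, 0.28, lay between 0.28 and 0.31 under the same alternatives, with no filter and with the filter raised to 5 RPKM. The number of laccases at least 2-fold apart was 0 under those alternatives; it was 2 with a limit of 1.5-fold, and 1 with a pseudocount of 0.1 RPKM and no filter together, a setting added after seeing the data, where Potri.008G064000 enters. The ratio of the summed levels, 1.30, was 1.38 without Potri.010G193100 and 1.32 after scaling to equal sums, both also added. Of 24 percentiles among genes of like mean, 1 was marked as moved. Potri.009G042500 stood above 99.6% of the 500 nearest genes, where 2 had a ratio at least as large, and above 100% of the 200 nearest. So few genes cannot tell these percentiles apart. Potri.010G193100 stood above 96.2% of the 500 nearest genes and above 97.5% of the 200 nearest, at the edge of their central 95%, so its place inside that range depends on how many genes are taken. Ratios of tandem neighbours with 1 RPKM added stayed within their intervals. Shares by coding length and medians over annotated laccases were not run, since no annotation was used here. Depth limits Potri.008G064000 most, whose interval is the widest.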

Other observations

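The genes next to the laccases on their chromosomes were looked at after the results were seen. For the tandem copies these neighbours include the other laccase of the place and, on chromosome 6, Potri.006G097000, which were compared above. Around Potri.009G042500, 13 of the 20 nearest rows passed the filter, with log2 ratios of -0.35 to 0.31 and a median of 0.0090, so the laccase at 0.90 stood above each of them. Around Potri.010G193100, 14 rows passed, with ratios of -0.26 to 0.25, beside 0.33 for the laccase. Around Potri.016G112000, 10 rows passed, with a median of -0.27 and ratios of -0.46 to 0.13, beside 0.28 for the laccase. Around Potri.001G248700, 14 rows passed and ranged from -2.28 to 1.12, with a median of 0.06 and 1 gene at least 1.5-fold higher. That laccase, at 0.61, thus lay within the range of its neighbours. The other 4 laccases also lay within the range of theirs. Potri.006G096900, at 0.12, had 15 neighbours past the filter that reached 0.38, and Potri.006G097100, at -0.04, had 15 that reached 0.95. Potri.016G112100, at 0.12, had 10 that reached 1.17, and Potri.008G064000, at 0.65, had 15 that reached 1.01.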
